A study of Danio rerio with 13 samples.

Results

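Broad peaks are stretches of zebrafish gDNA enriched by an antibody against 6mA, with 5 or more summits under 1 peak number. They were taken from the 6mA-IP-seq lists of 64-cell (64C) embryos, 1 library with the SYSY antibody and 1 with the Abcam antibody. The members were chosen by their number of summits, which is a measured value of the 64C lists, and by the summit density of both lists. Bins of 100 kb that held at least 20 SYSY summits and at least 10 times the Abcam number plus 1 were left out, and there are 140 of these. Of 56988 peaks in the 64C SYSY list, 1587 have 5 or more summits, 704 of them touch such a bin, and 883 remain. Of 36742 peaks in the 64C Abcam list, 984 have 5 or more summits and 983 remain. The 1866 broad peaks of both lists are thus set against 45122 single-summit peaks of the 64C SYSY list and 27560 of the 64C Abcam list, all outside the same bins. In the whole series, 117822 peaks were called in 8 IP libraries.

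All embryos came from the Tubingen line, and many embryos were pooled for each gDNA sample. The 8 IP libraries are 64C with the SYSY antibody, 64C with the Abcam antibody, and 2 replicates each of 11, 12 and 13 hours post fertilization (hpf) with the SYSY antibody. The inputs, which are gDNA sequenced without pull-down, number 5, and both replicates of a later stage were compared with 1 input. Each antibody has 1 library at 64C, so that an antibody and a library cannot be told apart there. The summit names in the deposited lists carry the mark Rep2 for 64C SYSY, Rep4 for all 6 later libraries and no such mark for 64C Abcam, and the labels do not explain these marks. Read numbers were not analysed here, the depth of each list is therefore unknown, and the Wilson intervals given below cover counting error only. Positions are those of the danRer10 assembly, counted from 1. The genes, repeats and DNA sequence under the broad peaks were not analysed here.

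6mA is adenine that carries a methyl group on its N6 position. It is common in bacterial DNA, where it marks the host's own sequence for restriction systems and helps mismatch repair to find the parental strand. In animals its amount and role are debated, and embryos are one of the places where it has been sought. At the 64-cell stage zebrafish embryos still divide in rapid synchronous cleavages and transcribe little of their genome, whereas from 11 to 13 hpf the body axis is laid down and somites form. An antibody pull-down does not read single bases. A summit is the position of highest enrichment within about a DNA fragment's length, and several summits under 1 peak number mark a stretch over which enrichment did not fall back to the background between them.

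Broad peaks make up 1.55% of the peaks and hold 7.59% of the summits of the 64C SYSY list. In the 64C Abcam list they make up 2.68% of the peaks and hold 11.6% of the summits. Most of them lie close to the lower limit of the rule. In the 64C SYSY list 345 have exactly 5 summits, 448 have 6 to 9, and 90 have 10 or more, with a highest number of 30. In the 64C Abcam list the counts are 452, 465 and 66, with a highest number of 17. The median is 6.0 summits in both lists. Just outside the rule lie 574 SYSY and 781 Abcam peaks with 4 summits.

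**Figure D1:**
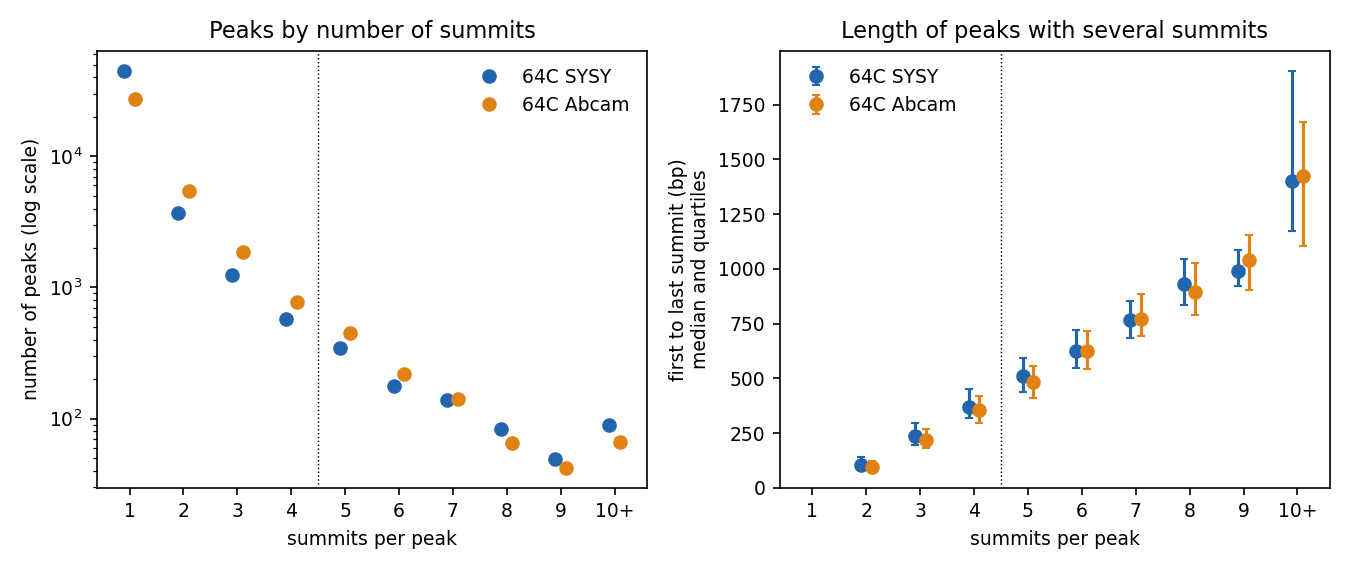
Left, number of 64C peaks (log scale) by the number of summits under 1 peak number, for the 64C SYSY and the 64C Abcam list outside the dense bins. Right, distance from first to last summit in bp, as the median with the quartiles. The dotted line separates broad peaks, at the right, from peaks with fewer summits. The median length is 509 bp with 5 summits and 1403.5 bp with 10 or more in the 64C SYSY list.

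The edges of the peaks were not used here, so length is given as the distance from the first to the last summit, which is a lower limit for the length of the peak. Broad peaks of the 64C SYSY list have a median length of 660 bp (quartiles 526.5 and 888 bp), and the longest measures 4186 bp. In the 64C Abcam list the median is 606 bp (quartiles 480 and 815 bp) and the longest measures 2685 bp. Length follows the number of summits that the rule used. Peaks with exactly 5 summits have a median of 509 bp with SYSY and 481.5 bp with Abcam, and those with 4 summits, just outside, 370 and 354 bp. The quartiles of the lists overlap over most of their range, and the lists differ more in their longest members.

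Neighbouring summits within a broad peak lie a median of 120 bp apart in the 64C SYSY list (quartiles 93 and 159 bp, 5134 gaps) and 115 bp in the 64C Abcam list (quartiles 90 and 154 bp, 5231 gaps). In peaks with 2 to 4 summits the medians are 109 and 101 bp. The smallest gaps are 43 bp in SYSY and 31 bp in Abcam broad peaks, and 65.1% and 64.7% of the gaps measure 80 to 160 bp. The spacing is not even inside a peak. The coefficient of variation of the gaps has a median of 33.7% over SYSY and 33.3% over Abcam broad peaks. A value under 10%, which would mark evenly spaced summits, was found in 6 SYSY (0.680%) and 15 Abcam broad peaks (1.53%). Evenly spaced summits were thus rare among the members of either list.

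The score of a summit is the −log10 of its q-value as given by the authors' peak caller, and it is compared only within a list. The highest summit of a broad peak has a median score of 17.7 in the 64C SYSY list (quartiles 13.4 and 27.6), whereas single-summit peaks of that list have 3.84 (2.85 and 5.68). In the 64C Abcam list the medians are 10.9 for broad peaks (quartiles 8.78 and 13.2) and 5.11 for single-summit peaks (3.61 and 6.99). By their highest summit, broad peaks are thus also the more significant peaks of their lists. The highest of 5 or more scores is set here against the only score of a single-summit peak, which by itself raises the value of broad peaks. Every comparison with single-summit peaks compares peaks of different significance as well. The first or last summit is the highest in 25.1% of SYSY and 29.7% of Abcam broad peaks. These outer positions make up 29.4% and 31.6% of their summits. The former shares count peaks and the latter count summits, where peaks with more summits weigh more, so that they have no common base. The median score is 8.67 at outer and 11.3 at inner summits of SYSY broad peaks, and 6.03 and 6.99 in Abcam broad peaks. These values pool peaks of different summit number and were not tested.

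The broad peak with the most summits of the 64C SYSY list lies on chromosome 24 from 2924367 to 2928553, with 30 summits and a highest score of 110. The Abcam library has 27 summits there (within 250 bp of the stretch, as for all counts that follow). The replicates of 11 hpf show 12 and 16, those of 12 hpf 14 and 16, and those of 13 hpf 8 and 8. All 8 libraries thus have several summits in this stretch.

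The next in the 64C SYSY list lies 0.233 Mb from the end of chromosome 4, from 231978 to 235609, with 27 summits and a highest score of 26.4. The Abcam library has 19 summits there, and its broad peak with the fifth most summits covers the same place, from 232569 to 235254, with 15 summits. Of the 6 later libraries only replicate 1 of 11 hpf has a summit there, and it has 1. Here both antibodies have a run of summits at 64C that the later lists nearly lack.

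The remaining 3 of the 5 named by their number of summits in the 64C SYSY list have no summit of any other library. They lie on chromosome 8 from 44396485 to 44399193 (25 summits, highest score 157) and from 44393703 to 44396089 (21 summits, 116), and on chromosome 5 from 47141469 to 47144154 (19 summits, 147). The 2 on chromosome 8 are neighbours in a bin from 44300001 to 44400000 that holds 74 SYSY and 8 Abcam summits and 1 summit of the later libraries, so that its Abcam number keeps it just outside the rule for dense bins. Described after its values were seen, it is 1 of 9 bins with members in which the SYSY number was 8 to 10 times the Abcam number plus 1.

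In the 64C Abcam list the 5 broad peaks with the most summits have 15 to 17 summits, and a SYSY summit lies in each of them. On chromosome 15 from 42049949 to 42052630 there are 17 Abcam and 14 SYSY summits. The replicates of 11 hpf show 6 and 2 there, and those of 12 and of 13 hpf 3 each. On chromosome 20 from 53471007 to 53473003 there are 17 Abcam and 8 SYSY summits, whereas the replicates of 11 hpf show 3 and 1, those of 12 hpf 3 and 8, and those of 13 hpf 2 each. Both stretches are marked in all 6 later libraries. Those on chromosome 3 from 1514117 to 1516412 (16 Abcam and 19 SYSY summits) and on chromosome 24 from 632669 to 634446 (16 Abcam and 11 SYSY summits) have 0 or 1 and 1 or 2 summits in each later library. A long run at 64C therefore came with long runs, single summits or none in the later lists.

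Broad peaks lie on all 25 numbered chromosomes in both lists. The 64C Abcam list has another 82 (8.34%) on 65 unplaced scaffolds, against 5.35% of its single-summit peaks, and the 64C SYSY list has no broad peak there, with 45121 of its 45122 single-summit peaks on numbered chromosomes. Of the 883 SYSY broad peaks, 35.2% lie within 2 Mb of a chromosome end (95% Wilson interval 32.1 to 38.4%), against 24.8% of the single-summit peaks (24.4 to 25.2%). For the 901 Abcam broad peaks on numbered chromosomes the share is 41.5% (38.3 to 44.8%), against 27.1% (26.5 to 27.6%). These ends make up 7.46% of the length. The median distance to the nearest end is 4.22 Mb for SYSY broad peaks and 7.98 Mb for SYSY single-summit peaks, and 2.98 and 6.94 Mb for the Abcam peaks.

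The share near the ends in the 64C SYSY list depends on the dense bins. With these bins kept, 20.2% of 1587 broad peaks lie within 2 Mb of an end, against 23.2% of single-summit peaks, so that the difference turns round. Among peaks whose highest score reaches the median of the list, the shares are 35.2% for SYSY broad and 28.4% for SYSY single-summit peaks, and 41.2% and 24.5% for the Abcam peaks. With a highest score of 10 or more, a floor chosen after seeing the data, they are 35.6% and 34.1% for the SYSY peaks and 41.2% and 22.9% for the Abcam peaks. A common floor does not make the scores of the kinds of peak equal.

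**Figure D2:**
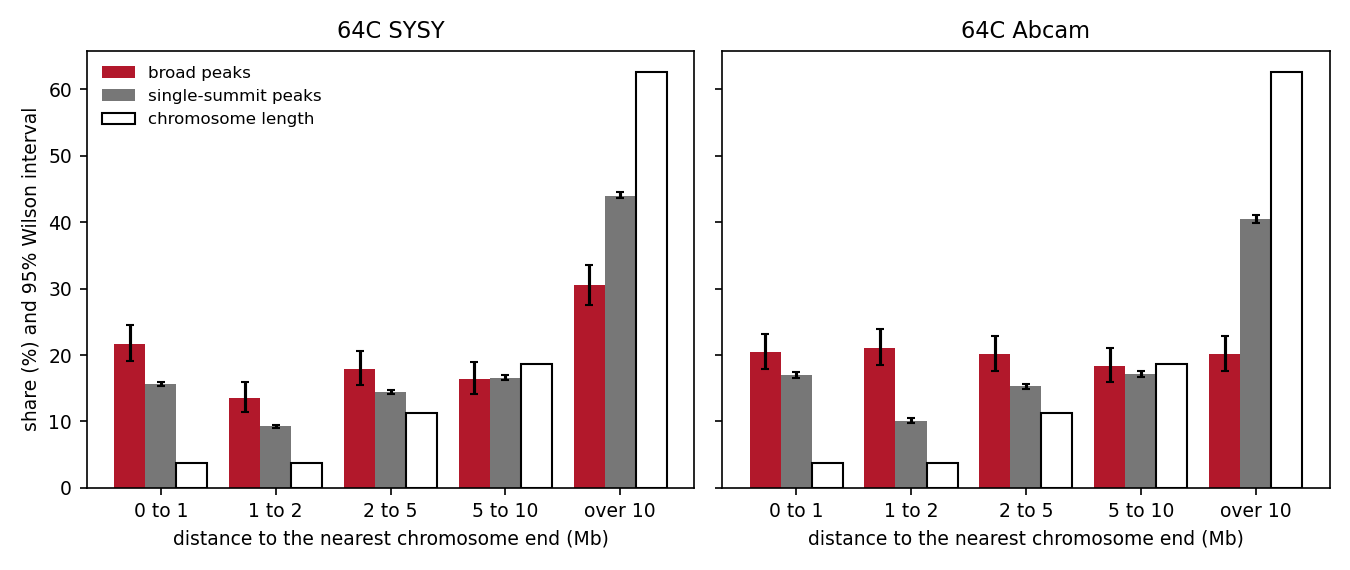
Share of broad peaks (red) and of single-summit peaks (grey) of the 64C SYSY list (left) and the 64C Abcam list (right) by distance to the nearest end of their numbered chromosome in Mb, with 95% Wilson intervals, beside the share of chromosome length at that distance (white). Beyond 10 Mb lie 30.5% of SYSY and 20.1% of Abcam broad peaks, against 44.0% and 40.5% of the single-summit peaks and 62.7% of the length.

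Among single chromosomes, the share of broad peaks relative to that of single-summit peaks was highest on chromosome 12 in the 64C SYSY list (56 broad peaks, ratio 1.60) and on chromosome 22 in the 64C Abcam list (29 broad peaks, ratio 1.36). It was lowest on chromosome 14 in both lists, with 18 SYSY (ratio 0.558) and 23 Abcam broad peaks (0.730). With 18 to 60 members a chromosome, these ratios have wide counting errors and were not tested. Another broad peak of the same list lies within 2 kb of 11.3% of the SYSY and 10.7% of the Abcam members, and within 10 kb of 25.7% and 15.8%. Such shares were not counted for single-summit peaks. They therefore do not show whether broad peaks lie nearer to each other than other peaks do. The bins with the most SYSY members differ in their Abcam number. Chromosome 10 from 14700001 to 14800000 has 8 broad peaks with 67 SYSY and 6 Abcam summits, and chromosome 7 from 400001 to 500000 has 7 with 102 SYSY and 55 Abcam summits, both named after their values were seen. Leaving out the bins with at least 5 times the Abcam number plus 1, an alternative chosen after seeing the data, removed 92 of the 883 members.

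The antibodies were compared over windows of equal size, 250 bp to either side of the highest summit of each peak, because a longer peak meets more summits by its length alone. Equal windows do not fully take out this effect. Neighbouring summits of a broad peak lie a median of 120 bp (SYSY) or 115 bp (Abcam) apart, so that its window can hold several of them. An Abcam summit lay in this window for 66.6% of the SYSY broad peaks (95% Wilson interval 63.4 to 69.6%), against 31.0% of the SYSY single-summit peaks (30.6 to 31.5%). The share over all 56988 SYSY peaks, dense bins included, is 31.7%. A SYSY summit lay in the window for 80.9% of the Abcam broad peaks (78.3 to 83.2%), against 39.6% of the Abcam single-summit peaks (39.0 to 40.2%), and over all 36742 Abcam peaks for 46.7%. The bins were left out partly for having few Abcam summits, so that the SYSY share is raised by the choice, and with all bins it is 37.4%, against 29.0% of single-summit peaks. Counting only those Abcam peaks that lie on numbered chromosomes and not past the outermost SYSY summit, the shares are 90.3% for broad and 42.8% for single-summit peaks. Among peaks whose highest score reaches the list median they are 66.6% for SYSY broad and 41.7% for SYSY single-summit peaks, and 80.7% and 39.8% for the Abcam peaks. With a highest score of 10 or more they are 66.7% for SYSY broad and 51.3% for SYSY single-summit peaks, and 81.6% and 49.4% for the Abcam peaks.

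Of the SYSY broad peaks 208 (23.6%) overlap a broad peak of the Abcam list, and of the Abcam broad peaks 214 (21.8%) overlap one of the SYSY list, in 216 pairs. The bins left out are touched by 704 SYSY peaks with 5 or more summits but by 1 such Abcam peak. The SYSY shares of overlap are thus raised by the choice, and with all bins they were not counted. Over all peaks, dense bins included, 2.46% of the SYSY list and 2.85% of the Abcam list overlap a broad peak of the other antibody. A longer stretch meets more of them, and at the highest summit alone the shares are 17.6% of SYSY broad and 1.63% of SYSY single-summit peaks, and 17.7% and 1.65% of the Abcam peaks. The stretches of a pair overlap by a median of 575.5 bp. As a share of the length that the pair covers together, the overlap has a median of 65.8%. Another 423 SYSY members (47.9%) have Abcam summits within 250 bp but overlap no broad peak, and for 160 of them every Abcam peak there has a single summit. The last 252 (28.5%) have no Abcam summit. Among the Abcam members the 3 classes hold 214, 622 (63.3%) and 147. Of those 147, 82 lie on scaffolds and 21 past the outermost SYSY summit of their chromosome, which leaves 44 within the range of the SYSY list.

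These classes also differ in the later lists, which the rule did not use. Between the first and last summit and 250 bp beyond, a given later library had a summit in 57.5% of the SYSY broad peaks that overlap an Abcam broad peak (mean of 6 libraries, 40.4 to 83.2%). With Abcam summits but no overlapping broad peak the mean was 45.4% (30.7 to 61.7%), and without Abcam summits 18.5% (9.92 to 29.0%). In each of the 6 libraries the 3 shares stood in this order. The classes differ in length too, with median lengths of 813, 635 and 630.5 bp, and in their share within 2 Mb of a chromosome end, with 46.2%, 39.2% and 19.4%. Of the 883 members, 92 touch bins with at least 20 SYSY summits and 5 to 10 times the Abcam number plus 1. Their spread over the classes was not counted. The part of length, place and such bins in this order was not tested. At least 1 later library had a summit in 192 of 208 (92.3%), 335 of 423 (79.2%) and 108 of 252 (42.9%) members of the 3 classes. Over all 883 SYSY broad peaks this share was 71.9%, and over SYSY single-summit peaks, in shorter windows, 13.2%. For the same 3 classes of Abcam broad peaks the mean later shares were 55.9%, 31.1% and 32.4%. There the 147 members without a summit of the other antibody were not the lowest. Of these, 82 on scaffolds and 21 past the outermost SYSY summit lie outside the range of the SYSY list. The later share of the other 44 was not counted alone, so that this class is unlike the SYSY one.

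Within pairs, summits of the antibodies lay nearer to each other than to the midpoints between summits. Where broad peaks of both antibodies overlap, the 1127 Abcam summits lie a median of 23.0 bp from the nearest summit of a SYSY broad peak and 39.0 bp from the nearest midpoint between 2 neighbouring SYSY summits. Of them 53.1% lie within 25 bp of a summit and 27.9% within 25 bp of a midpoint. Of the later libraries' summits inside SYSY broad peaks, 64.6% ± 3.31 (SD, n = 6 libraries) lie within 25 bp of a SYSY summit and 21.9% ± 2.31 within 25 bp of a midpoint. Inside Abcam broad peaks 58.5% ± 3.13 lie within 25 bp of an Abcam summit and 24.6% ± 1.20 within 25 bp of a midpoint. Midpoints serve as the comparison because they are spaced as the summits are. These shares describe positions and were not tested.

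**Figure D3:**
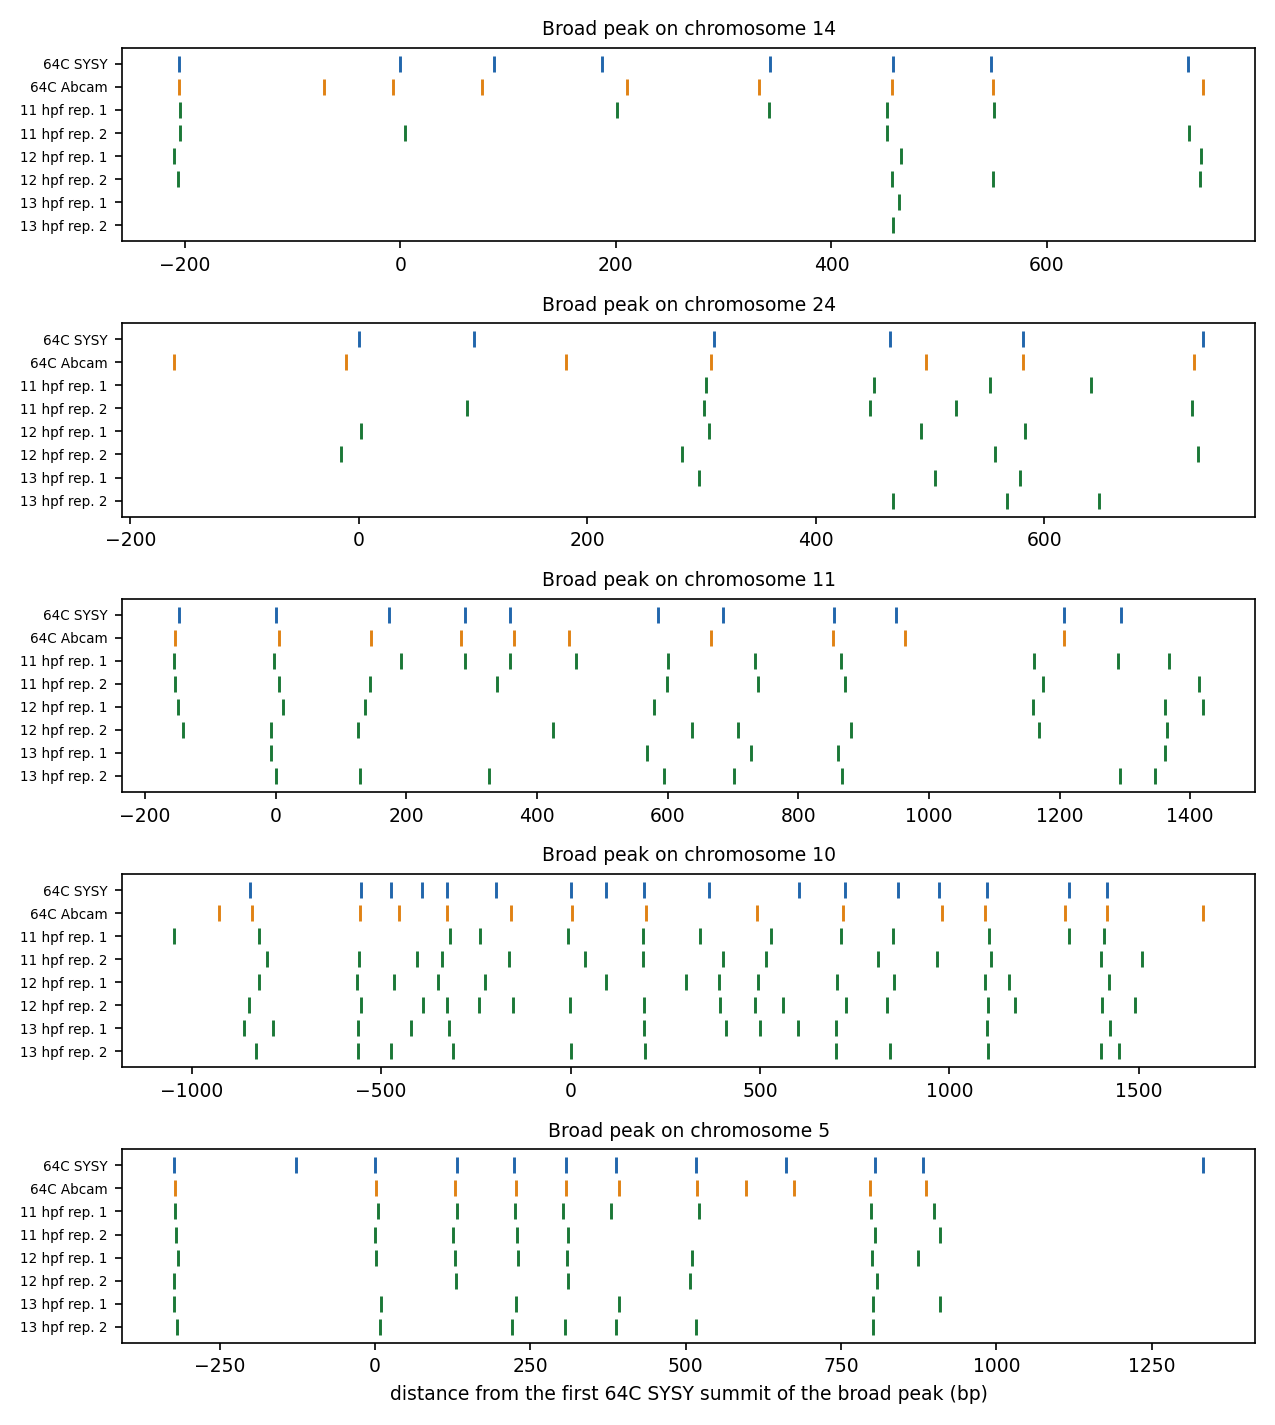
Summits of the 8 IP libraries (rows, each tick 1 summit) in the 5 best-ranked stretches that are broad peaks with both antibodies and have a summit in all 6 later libraries, by distance in bp from the first summit of the 64C SYSY broad peak. From top to bottom these lie on chromosomes 14, 24, 11, 10 and 5. On chromosome 10 every later library has at least 7 summits in the stretch, whereas on chromosome 14 both replicates of 13 hpf have 1.

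There were 43 SYSY broad peaks (20.7% of 208) that overlap an Abcam broad peak and have a summit in all 6 later libraries. All 6 also had a summit in 81 of the 423 SYSY broad peaks with Abcam summits but no overlapping broad peak. Without Abcam summits this held for 12 of 252. Over all SYSY broad peaks the share with a summit in all 6 was 15.4%, and over SYSY single-summit peaks, in shorter windows, 0.199%. The 5 best of the 43 by the rank of their highest scores are shown in the map of summit positions. The stretch on chromosome 14 runs from 51783378 to 51783926, 0.161 Mb from the end, with 6 SYSY summits and an Abcam broad peak of 8 summits. The replicates of 11 hpf show 5 and 4 summits, those of 12 hpf 3 and 4, and those of 13 hpf 1 each.

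The stretch on chromosome 10 runs from 17302593 to 17304008, far inside the chromosome at 17.3 Mb from the end, with 11 SYSY summits and an Abcam broad peak of 13. The replicates of 11 hpf show 10 summits each, those of 12 hpf 10 and 13, and those of 13 hpf 7 each. It has a run of summits at every stage. The others lie on chromosome 24 from 36558295 to 36559034 (6 SYSY and 7 Abcam summits in the broad peaks), chromosome 11 from 43188885 to 43189835 (8 and 8) and chromosome 5 from 3324627 to 3325509 (9 and 10). Each of these 3 has 3 to 10 summits in every later library.

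How often a summit of a later library lay at a broad peak was measured in the same equal windows. Of the 883 SYSY broad peaks, 46.9% had a summit of replicate 1 and 36.0% one of replicate 2 of 11 hpf. For 12 hpf these shares were 30.1% and 32.8%, and for 13 hpf 23.7% and 20.2%. At SYSY single-summit peaks the same libraries gave 6.71% and 3.92% for 11 hpf, 3.26% and 4.08% for 12 hpf, and 3.19% and 2.08% for 13 hpf. Every library thus lay higher at broad peaks, by 6.99 to 9.70 times, and the ranges of the 6 libraries do not overlap. The mean difference was 27.7 percentage points ± 8.02 (SD, n = 6 libraries, higher in 6 of 6). A two-sided exact sign-flip permutation test over the 6 libraries gave p = 0.0312, the smallest p that 6 libraries allow, and 0.0375 after Benjamini-Hochberg adjustment over the 6 such tests.

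Of the 983 Abcam broad peaks, 42.3% and 28.8% had a summit of the replicates of 11 hpf, 23.3% and 25.5% of those of 12 hpf, and 21.0% and 16.3% of those of 13 hpf. At Abcam single-summit peaks the replicates of 11 hpf gave 9.96% and 5.97%, those of 12 hpf 5.12% and 5.98%, and those of 13 hpf 4.71% and 3.25%. Broad peaks again lay above single-summit peaks in every library, here by 4.25 to 5.00 times. The mean difference was 20.4 percentage points ± 6.73 (SD, n = 6, higher in 6 of 6; exact sign-flip permutation test, p = 0.0312, adjusted p = 0.0375). The 6 libraries are 2 replicates of each of 3 stages, with an input in common within a stage, and with replicates averaged the 3 stages cannot give a p below 0.25. Both lists are read against the same 6 libraries, and some stretches are in both, so that the results are not independent.

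**Figure D4:**
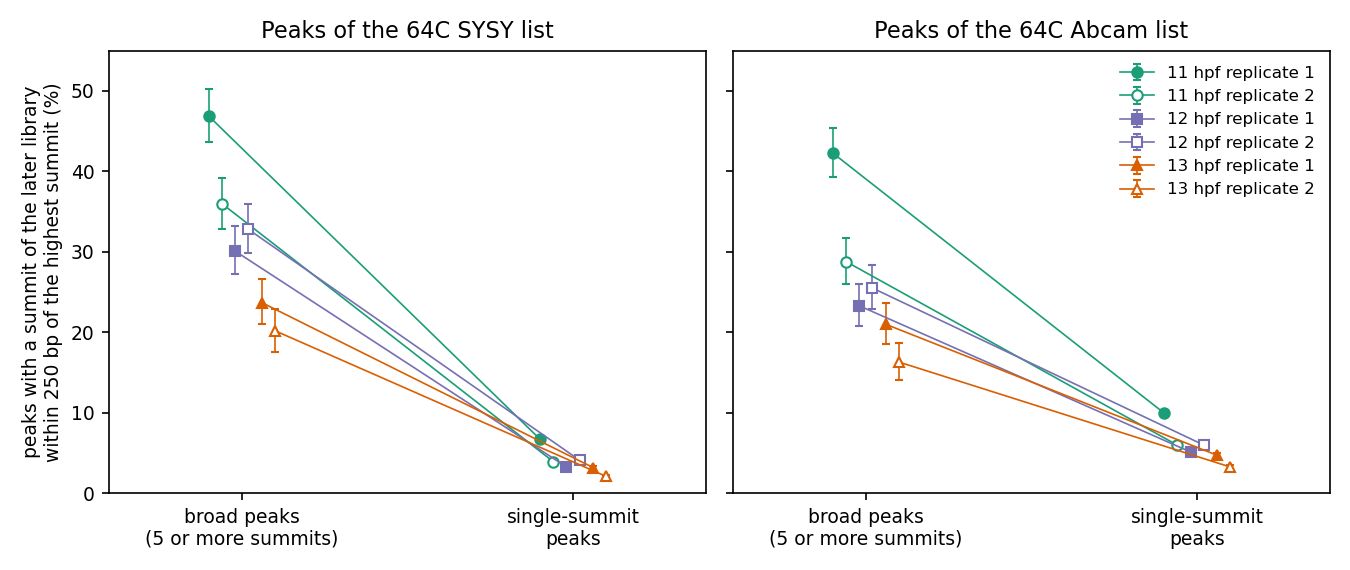
Share of 64C peaks with a summit of a later library within 250 bp of their highest summit, for broad peaks (left in each panel) and single-summit peaks (right), in the 64C SYSY list (left panel) and the 64C Abcam list (right panel). Each line is 1 later library, filled for replicate 1 and open for replicate 2, with 95% Wilson intervals. All 12 lines fall from broad to single-summit peaks.

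The size of this difference depended on the matching window and, in the 64C SYSY list, on the score and on the dense bins. Its direction did not change. Within 100 bp the mean difference was 21.4 percentage points for SYSY and 12.6 for Abcam, and within 1000 bp 34.4 and 29.1. Over the whole stretch and 250 bp beyond it was 36.7 and 30.9. For peaks at or above the median score of their list the mean difference was 24.5 percentage points for SYSY and 19.8 for Abcam. With a highest score of 10 or more in both kinds of peak, it was 17.9 percentage points in the 64C SYSY list and 19.4 in the 64C Abcam list. With the dense bins kept, it was 14.4 for SYSY and 20.3 for Abcam. Without the first and last 2 Mb of the chromosomes, but with scaffolds kept, it was 24.3 with SYSY and 17.5 with Abcam. Within these ends it was 33.0 and 23.7. In each of these settings the exact permutation test over the 6 libraries gave p = 0.0312.

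Taken over all 6 libraries, 63.9% of the SYSY broad peaks had a summit of at least 1 later library in the equal window, where all SYSY peaks have 15.9%, and 9.85% had a summit of all 6, where all SYSY peaks have 0.604%. For the Abcam broad peaks the shares were 60.9% and 5.39%, where all Abcam peaks have 24.3% and 1.22%. These shares over all peaks include the dense bins, which the broad peaks leave out. Over the whole stretch and 250 bp beyond, 136 SYSY broad peaks (15.4%) had a summit in all 6 later libraries and 248 (28.1%) in none. SYSY single-summit peaks, whose windows are shorter, had 0.199% and 86.8%. For Abcam broad peaks these numbers were 91 (9.26%) and 257 (26.1%), against 0.78% and 81.4% of Abcam single-summit peaks. Strictly between the first and last summit, a given later library had a summit in 24.0 to 52.4% of the SYSY and 21.2 to 51.4% of the Abcam broad peaks.

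The share was higher with more summits already below the limit of the rule. In the 64C SYSY list the mean over the 6 libraries was 3.87% with 1 summit, 15.1% with 2, 22.7% with 3, 26.3% with 4, 27.3% with 5 and 41.9% with 10 or more. For the 64C Abcam list it was 5.83%, 11.9%, 18.3%, 23.5%, 25.2% and 33.1%. Values between do not all follow this order, with 51.0% at the 49 SYSY peaks of 9 summits and 19.4% at the 42 Abcam peaks of 9 summits. A summit of the other antibody lay at 62.6% of the SYSY peaks with 5 summits, just inside the limit, which is below the 69.5% with 4 summits, just outside it (95% Wilson intervals 57.4 to 67.5% and 65.6 to 73.1%), and below the 68.6% with 3. For the 64C Abcam list the shares were 78.1% with 5 summits and 77.8% with 4.

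**Figure D5:**
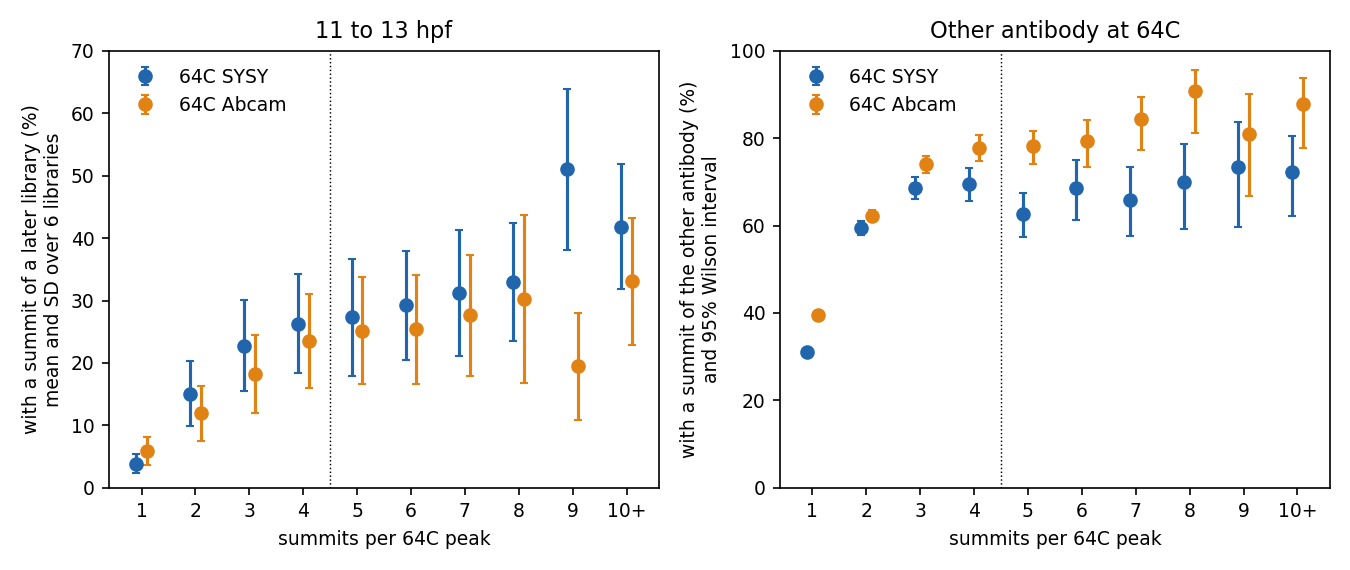
Left, share of 64C peaks with a summit of a later library within 250 bp of their highest summit, as mean and SD over the 6 libraries from 11 to 13 hpf, by number of summits per peak. Right, share with a summit of the other antibody at 64C in the same window, with 95% Wilson intervals. Broad peaks lie right of the dotted line. The later share at SYSY peaks runs from 3.87% with 1 summit to 41.9% with 10 or more.

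By stage, the mean share of SYSY broad peaks with a later summit was 41.4% ± 7.69 for 11 hpf, 31.5% ± 1.92 for 12 hpf and 21.9% ± 2.48 for 13 hpf (SD, n = 2 libraries each). For the Abcam broad peaks the means were 35.6% ± 9.57, 24.4% ± 1.58 and 18.6% ± 3.31. The stages do not overlap for either list. An exact permutation test that formed all 15 possible pairings of libraries returned p = 0.0667 with either list, which is the smallest p this design allows. The shares at single-summit peaks had the same order, with 5.32%, 3.67% and 2.63% for SYSY at 11, 12 and 13 hpf, and the ratio of broad to single-summit peaks was 8.08, 8.64 and 8.56. For the Abcam list the ratios were 4.54, 4.41 and 4.72. The number of summits of the later lists moves with the stage as well (4584 to 7582 at 11 hpf, 2439 to 3476 at 13 hpf), and its part in the order was not tested.

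Counted from the later lists, the SYSY broad peaks hold 16.0 to 20.5% of all summits of a later library, although with 250 bp at either side they cover 0.0831% of the numbered chromosomes. The Abcam broad peaks, with those on scaffolds, hold 12.8 to 15.6%, and their cover of the numbered chromosomes is 0.0794%. Single-summit peaks, which are many more, hold 32.0 to 34.8% with SYSY and 34.3 to 35.8% with Abcam. The length that single-summit peaks cover was not counted. Later peaks at SYSY broad peaks had 2 or more summits of their own in 13.2% ± 2.49 of cases, against 3.40% ± 0.531 at SYSY single-summit peaks (SD, n = 6). The mean difference was 9.78 percentage points (higher in 6 of 6, exact sign-flip permutation test, p = 0.0312, adjusted p = 0.0375). With a highest score of 10 or more in both kinds of peak, a floor chosen after seeing the data, it was 7.89. These later peaks were taken over the whole stretch and 250 bp beyond, so that the windows are longer at broad peaks. At Abcam broad peaks the share was 8.46% ± 2.42, against 6.67% ± 1.35 at Abcam single-summit peaks, and the difference of 1.80 percentage points did not pass the test (higher in 4 of 6, exact permutation, p = 0.156). It did pass without the chromosome ends but with scaffolds kept (3.21), and with that score floor of 10 or more (2.80), each with p = 0.0312 in the exact test, not adjusted. In the other 12 alternatives it did not pass, and some of these leave too few libraries to pass.

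To compare the later scores, the summits of each later list were ranked, with 100 for the highest score. They were taken over the same windows of unequal length. Later summits at SYSY broad peaks had a median rank of 49.6 to 58.9, against 46.2 to 48.8 at SYSY single-summit peaks, a mean difference of 7.82 ± 3.12 (SD, n = 6, higher in 6 of 6; exact sign-flip permutation test, p = 0.0312, adjusted p = 0.0375). At Abcam broad peaks the median rank was 42.0 to 50.9, against 52.4 to 53.6 at Abcam single-summit peaks, a mean difference of -4.99 ± 3.29 (lower in 6 of 6; p = 0.0312 in the same exact test, adjusted p = 0.0375). These differences are small and the SYSY one turns round with the score of the 64C peaks. With a highest score of 10 or more in both kinds of peak it was -11.9, and the Abcam one -12.8. Without the chromosome ends but with scaffolds kept, the Abcam difference did not pass the exact test (-2.16, p = 0.25). Nor did it pass this exact test within the range of the SYSY list (-4.50, p = 0.0625) or with 8 or more summits (-3.97, p = 0.25).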

How the data were processed

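The broad peaks, the single-summit peaks set against them and the tests were chosen with earlier results of these data known. Per the labels the authors used Bowtie 1.0, MACS2 and the danRer10 build. By the study's methods, a read with several best matches was kept at 1 of them, drawn at random, and peaks were called from each IP library and its input under a cutoff on the false discovery rate. The deposited lists give the position of each summit and the −log10 of its q-value, and no value lies below 2.00.

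Summits were grouped by the peak number in their names, and the letters that follow it run without gaps in every 64C peak with several summits. A peak was left out when any of its summits lay in a dense bin. A peak was counted as shared when a summit of the other library lay within 250 bp of its highest summit. The summit number of later peaks and the later score ranks were instead taken over the whole stretch and 250 bp beyond. Each chromosome was taken to end at its outermost summit in the 8 lists. Peaks on scaffolds were given no distance to an end and stayed in the sets without the chromosome ends. Differences between broad and single-summit peaks were tested over the 6 later libraries by exact sign-flip permutation, two-sided, with Benjamini-Hochberg adjustment over 6 tests. The study calls the replicates of a later stage biological replicates, and the labels do not say whether they come from separate embryo collections. The counting was tested on simulated lists with planted shares. The named regions were, by rule, the 5 broad peaks with the most summits in each 64C list and the 5 best-ranked stretches found with both antibodies and in all 6 later libraries. Python 3.11.15, NumPy 2.4.6, pandas 2.3.3 and matplotlib 3.10.9 were used. No danRer10 genome or annotation was used here. The alternatives tried were other matching distances and windows, other limits on summits and scores, the dense bins, the chromosome ends, and each later library left out.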

Additional observations from a re-analysis of the deposited data

Results flagged for a closer look

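In 3 measures the difference between broad and single-summit peaks was not the same for the lists of the 2 antibodies, by exact sign-flip permutation tests over the 6 later libraries (p = 0.0312 each, the smallest p that 6 libraries allow, and 0.0312 after adjustment over the 3 tests). The share of peaks with a later summit differed by 27.7 percentage points with SYSY and by 20.4 with Abcam, and the SYSY value was larger by 7.38 ± 2.20 (SD, n = 6, in 6 of 6 libraries). This order turned round with a highest score of 10 or more in both kinds of peak, with 17.9 for SYSY and 19.4 for Abcam, and with the dense bins kept, with 14.4 and 20.3. The median rank of the later scores differed by 7.82 with SYSY and by -4.99 with Abcam, a distance of 12.8 ± 2.63 (in 6 of 6). The share of later peaks with 2 or more summits differed by 9.78 percentage points with SYSY and by 1.80 with Abcam, a distance of 7.98 ± 2.24 (in 6 of 6). At that same score floor the rank difference was -11.9 with SYSY and -12.8 with Abcam. The difference in later peaks with 2 or more summits was there 7.89 with SYSY and 2.80 with Abcam. With the dense bins kept it was 9.99 and 1.80. All later libraries were made with the SYSY antibody. Each antibody has 1 library at 64C, so that the antibody, the library and the experiment cannot be told apart.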

How the results depend on the processing

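With any later library left out, no difference turned round and 5 libraries allow no exact permutation p below 0.0625. For SYSY the difference in later share then ran from 25.3 to 29.7, in score rank from 6.84 to 8.81 and in later peaks with several summits from 9.25 to 10.3. For Abcam the later share ran from 18.0 to 21.8 and the score rank from -5.68 to -3.91. With replicates averaged the means stayed at 27.7, 7.82 and 9.78 for SYSY and 20.4 and -4.99 for Abcam, and the smallest exact permutation p is 0.25. Deviations between the replicates of a stage, taken peak by peak over the broad peaks, gave correlations of 0.00 to 0.03 between stages. A correlation over peaks leaves out any shift common to all peaks of a library. It therefore cannot show whether replicates of the same number belong together. With a replicate block the stage difference had an exact permutation p of 0.167 in both lists.

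The later share of broad peaks exceeded that of single-summit peaks under every alternative tried. Other values moved. With the dense bins kept there were 1587 SYSY broad peaks, 37.4% had an Abcam summit and 20.2% lay at the ends, below the single-summit peaks. With bins left out at 5 times, these shares were 70.8% and 39.1%. With a highest score of 10 or more, the SYSY rank difference reversed to -11.9, and the Abcam difference in later peaks with several summits passed at 2.80, as it did without the chromosome ends (3.21). The latter difference did not pass in the other 12 alternatives. The Abcam rank difference missed the threshold with 8 or more summits (-3.97), within the SYSY range (-4.50) and without the ends (-2.16). The share with the other antibody was 57.6% for SYSY and 69.3% for Abcam within 100 bp, 72.3% and 86.4% within 1000 bp, 71.5% and 85.0% over the whole stretch, and 71.6% and 87.3% with 8 or more summits. It was 58.6% and 75.9% without the ends, 81.4% and 89.0% in the ends, and 90.3% for Abcam within the SYSY range. The Abcam set without the ends keeps the 82 broad peaks on scaffolds, none of which has a SYSY summit. Its share and that in the ends therefore do not compare place alone. Single-summit peaks moved in the same way, with 25.1% for SYSY and 31.2% for Abcam within 100 bp, and 38.1% and 49.8% within 1000 bp. Single-summit peaks had 26.8% and 34.8% without the ends (scaffolds kept), 44% and 53.6% in the ends, and 42.8% for Abcam within the SYSY range. At the ends lay 39.6% of SYSY broad peaks with 8 or more summits, and with ends of 5 Mb 53.1% of SYSY and 61.6% of Abcam broad peaks. The alternatives on the score of 10, the averaged replicates and the bins at 5 times were chosen after seeing the data. The causes were not tested. The lists hold no read numbers, so the depth behind an absent summit is unknown.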
